A study of Mus musculus with 4 samples.

Results

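Messenger RNA levels of the proteasome genes were compared between mouse T helper 2 (Th2) cells given dopamine and Th2 cells given PBS. All genes were taken whose symbol starts with Psma, Psmb, Psmc, Psmd, Psme, Psmf or Psmg followed by a digit, without pseudogene names. The rule gave 50 of the 26207 genes in the deposited expression table, and 0 further symbols were removed as pseudogenes. Of these, 49 encode proteasome subunits, activators, an inhibitor or assembly chaperones. The remaining one, Psmc3ip, encodes a recombination factor that binds a proteasome ATPase and is no subunit.

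The study concerns sympathetic nerves of the lung and the Th2 memory cells that settle there, and asks here how dopamine changes the Th2 transcriptome. It holds 4 bulk RNA-seq libraries of poly(A) RNA from Th2 cells with spleen as the stated tissue. One group of 2 libraries received PBS and the other group of 2 received dopamine at 10 µM. The labels do not state strain, genotype, age or length of treatment. Separate mice or cultures are not named for the libraries either, so each p-value reflects variation among the 4 libraries alone, which may be technical.

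The proteasome is the large protease that degrades proteins tagged with ubiquitin. Its barrel-shaped core, the 20S particle, has outer rings of alpha subunits, which form the gate, and inner rings of beta subunits, some of which cut peptide bonds. The 19S regulatory particle caps the barrel, and its base unfolds substrates with a ring of ATPases while its lid removes the ubiquitin chain. Interferon signalling and lymphoid identity bring in the immunoproteasome subunits Psmb8, Psmb9 and Psmb10, which replace the constitutive catalytic subunits Psmb5, Psmb6 and Psmb7 in newly assembled cores and change the peptides made for presentation. T cells carry both kinds of core.

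The libraries held 5717408 and 13241168 reads counted on genes with PBS and 14167357 and 11492182 with dopamine, here called A and B within each group. Values below are the authors' normalized read counts, in which 1 read is worth between 0.766 and 1.70. The 6 helper T cell markers were present in all 4 libraries, with summed values of 15959 to 16900 with PBS and 16807 to 17435 with dopamine. Of these 6, Cd3d and Cd3g rose and Trac fell by 0.27 on the log2 scale (limma adjusted p = 8.38e-04). Markers of other cells also moved with treatment: the summed level of 4 basophil and mast cell genes, 4 of which fell, was 1497 to 1804 with PBS and 433 to 521 with dopamine, and that of 3 platelet genes, 3 of which fell, was 1270 to 1446 and 371 to 427. The myeloid sum over 4 genes (3 fell) was 134 to 152 against 49.4 to 57.3, and the red cell gene Car1, the 1 of 4 listed with a row, was at 229 to 314 against 40.8 to 52.5. The B cell sum over 4 genes (3 rose) was 103 to 129 against 313 to 322, and that of 2 CD8 T cell genes (1 rose) was 95 to 107 against 206 to 209. No marker with a row was at 0 in any library. The part of these shifts in the proteasome result was not tested, and in bulk RNA fewer cells of a type and less RNA per cell cannot be told apart.

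Proteasome transcripts were higher with dopamine across almost the whole complex. Of the 50 genes, 44 were higher, 0 were lower and 6 did not pass the test, which was limma on log2(normalized count + 1) with Benjamini-Hochberg adjustment over all genes at 0.05. Over all genes the same test called 14.3% higher and 7% lower. Abundant genes were called more often: among genes with a mean over 500, 48.7% were higher and 8.36% lower. Of the 39 proteasome genes with a mean over 500, 36 were higher. At an unadjusted p under 0.05, 0 members were lower, and edgeR and DESeq2 also called 0 lower. With edgeR TMM, 40 members were higher, where 18.2% of all genes tested were higher and 15.8% lower, and with DESeq2 41 members were higher, against 20.5% higher and 5.73% lower.

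The size of the change is set beside that of other abundant genes as a description. The median log2 fold change (dopamine minus PBS) was 0.55 over the 50 members, -0.08 over all genes and 0.21 over genes with a mean over 500. A fold change of at least 1.5 was reached by 21 of the 39 abundant members, against 8.12% of all genes of that abundance. Both dopamine libraries lay above both PBS libraries in 45 of the 50 members, against 28.5% of all genes and 67.8% of genes with a mean over 500. The 6 members that did not pass were Psma8, Psmb9, Psmb10, Psmb11, Psme2b and Psmf1. By the adjusted p of the authors' deposited table, 41 members were higher and 0 lower, and all 41 were also called by limma.

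**Figure D1:**
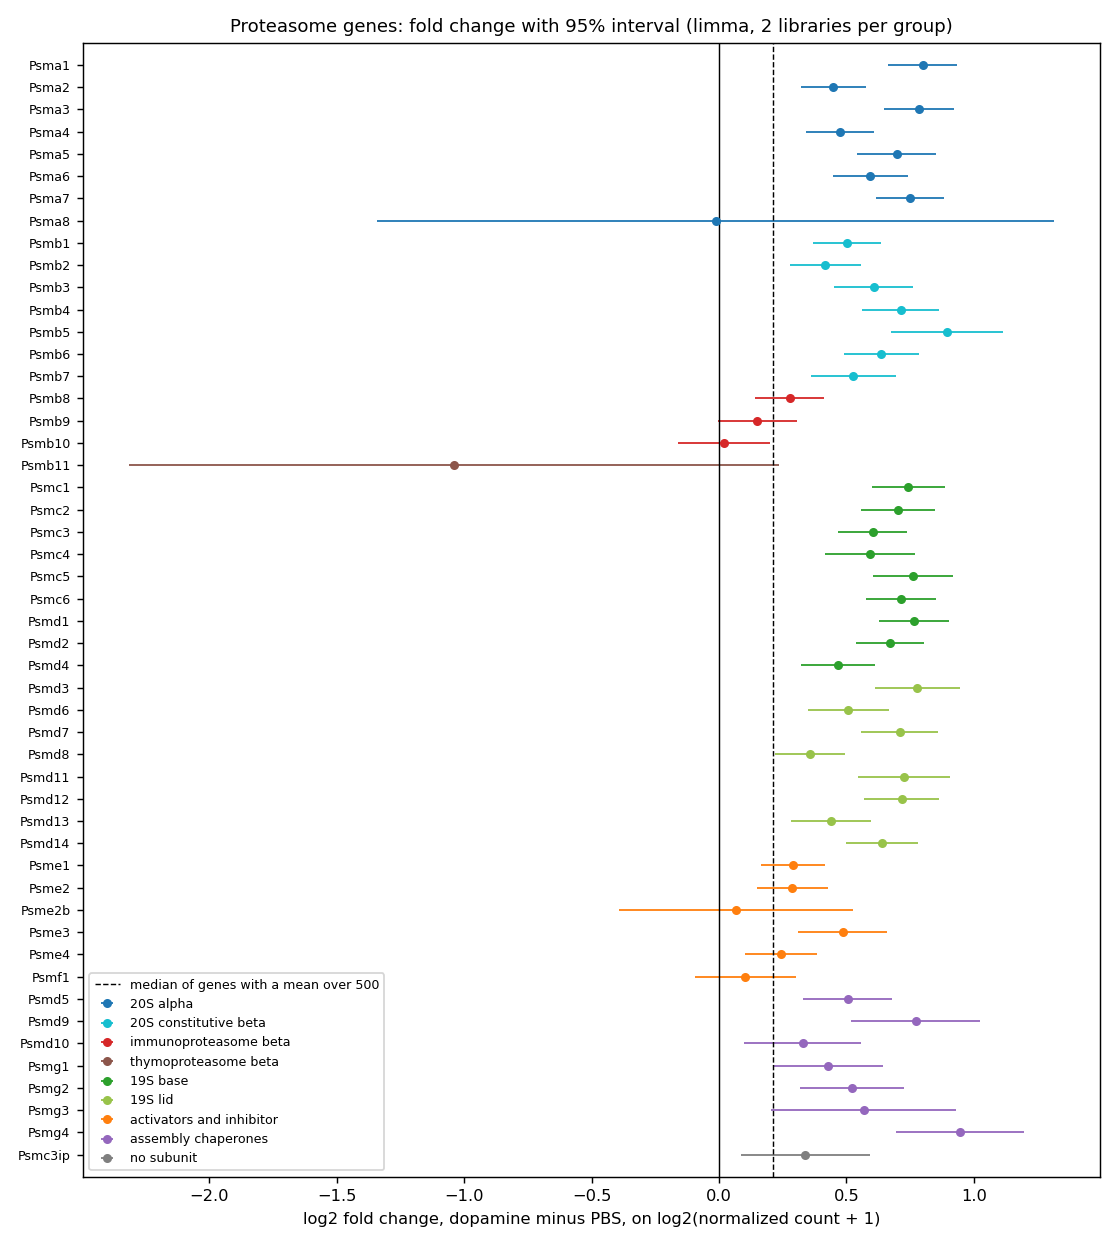
Log2 fold change (dopamine minus PBS) of each member on log2(normalized count + 1), coloured by its place in the complex, with points for the limma estimate and bars for its 95% interval; the dashed line is the median of genes with a mean over 500, at 0.21. The core and 19S members with a mean of at least 20 lie between 0.36 and 0.89, and the immunoproteasome beta subunits between 0.02 and 0.28.

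In the alpha ring, 7 of 8 genes rose, with a median log2 fold change of 0.65 (1.56-fold). Psma1 had normalized counts of 2076 and 2096 with PBS and 3617 and 3643 with dopamine. Its groups lay far apart relative to the gap between libraries, and the log2 fold change was 0.80 with a standard error of 0.07 (limma adjusted p = 4.53e-13). Psma3 had values of 2078 and 2111 with PBS and 3701 and 3520 with dopamine, a log2 fold change of 0.79 (adjusted p = 9.72e-13). The smallest rise in the ring was that of Psma2, with 3222 and 3425 against 4535 and 4529 and a log2 fold change of 0.45 (adjusted p = 3.46e-07). Even there both dopamine libraries exceeded both PBS libraries. Psma8, the germ cell counterpart of an alpha subunit, had only 2 and 7 reads with PBS and 6 and 4 with dopamine, too few to show a difference.

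The constitutive beta ring rose as a whole, 7 of 7 genes, with a median log2 fold change of 0.61 (1.52-fold). Psmb5, the chymotrypsin-like catalytic subunit, was at 296 and 328 with PBS and at 527 and 638 with dopamine. This was the largest estimate in the core, 0.89 on the log2 scale with a standard error of 0.11 (adjusted p = 1.21e-08). Its rank depended on the setting. After correction for GC content and transcript length Psmb5 was at 0.69, below Psma3 at 0.80 and Psma1 at 0.77. Psmb4, a non-catalytic subunit, had 1554 and 1815 with PBS and 2660 and 2848 with dopamine, a log2 fold change of 0.71 with a standard error of 0.07 (adjusted p = 2.76e-10). The other catalytic subunits rose less than Psmb5 in their estimates. Psmb6, the caspase-like subunit, had 1651 and 1817 against 2574 and 2819, a log2 fold change of 0.64 with a standard error of 0.07 (adjusted p = 2.58e-09). Psmb7, the trypsin-like subunit, had 841 and 812 against 1202 and 1181, a log2 fold change of 0.53 with a standard error of 0.08 (adjusted p = 2.86e-06). Psmb2 had the smallest rise of the ring, 2003 and 2037 against 2665 and 2731, or 0.42 on the log2 scale (adjusted p = 6.99e-06). The groups overlapped in none of these 5 beta genes. Both dopamine libraries also lay above both PBS libraries in 28.5% of all genes and 67.8% of genes with a mean over 500.

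In the 19S base, 9 of 9 genes rose, with a median log2 fold change of 0.70 (1.63-fold). Psmd1, a large scaffold subunit of the base, had normalized counts of 2001 and 2165 with PBS and 3466 and 3617 with dopamine, a log2 fold change of 0.77 (adjusted p = 3.08e-12). The ATPase Psmc5 followed with 1035 and 1066 against 1710 and 1852, a log2 fold change of 0.76 (adjusted p = 1.57e-10). Psmd4, a ubiquitin receptor, had the smallest rise, with 1675 and 1695 against 2298 and 2361 and a log2 fold change of 0.47 (adjusted p = 1.54e-06). In each of the 3 genes both dopamine libraries were the highest, as they were in 67.8% of genes with a mean over 500.

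The 19S lid rose to a similar extent, 8 of 8 genes with a median log2 fold change of 0.67 (1.6-fold). Psmd3 had normalized counts of 970 and 1053 with PBS and 1590 and 1889 with dopamine, a log2 fold change of 0.78 with a standard error of 0.08 (adjusted p = 4.24e-10). Psmd11, a lid subunit known to promote assembly of the capped proteasome, had 557 and 561 against 921 and 930, a log2 fold change of 0.73 with a standard error of 0.09 (adjusted p = 1.74e-08). Psmd8 had the smallest rise, 2524 and 2536 against 3108 and 3378, or 0.36 on the log2 scale (adjusted p = 6.28e-05). That gene also marks the lower end of all constitutive 20S and 19S members with a mean of at least 20. All 31 of them were higher, with a median fold change of 1.59 and the largest adjusted p at 6.28e-05. They were higher in each of the 17 settings tried, including every fit without 1 library. Across these 31 genes the log2 fold change had a Spearman correlation of -0.02 with GC content and -0.16 with expression level, a description over genes that share 4 libraries.

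The immunoproteasome beta subunits had smaller estimates. Of the 3 genes 1 was called higher, with a median log2 fold change of 0.15 (1.11-fold), beside a median of 0.21 for genes with a mean over 500. That median rested on single libraries: it was 0.061 without PBS library A and 0.065 without dopamine library B (0.18 and 0.19 for the abundant genes), and 0.24 without PBS library B and 0.24 without dopamine library A (0.24 and 0.23 for the abundant genes). Psmb8 had normalized counts of 2951 and 3296 with PBS and 3688 and 3871 with dopamine. Its groups did not overlap, and it rose by 0.28 on the log2 scale with a 95% interval of 0.14 to 0.41 (limma adjusted p = 0.00157). The call was lost without PBS library A (0.20, adjusted p = 0.165) and after rescaling on abundant genes (0.08, adjusted p = 0.332).

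Psmb9 had 1687 and 1909 with PBS and 1877 and 2113 with dopamine. These groups overlapped, with a log2 fold change of 0.15 and an adjusted p of 0.167. Psmb10 had 950 and 968 with PBS and 879 and 1074 with dopamine, the lowest and the highest value both being dopamine libraries. Its log2 fold change was 0.02 with a 95% interval of -0.16 to 0.20 (adjusted p = 0.902). The sign of both depended on the scaling: rescaled on abundant genes, Psmb9 was at -0.045 and Psmb10 at -0.18. The thymus counterpart Psmb11, known from cortical epithelium, had only 4 and 10 reads with PBS and 4 and 3 with dopamine, and its adjusted p was 0.258.

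Each immunoproteasome subunit was then set against the constitutive subunit whose place it takes, as a ratio within a library, which does not depend on the scaling between libraries. The Psmb8 to Psmb5 ratio of normalized counts was 9.98 and 10.1 with PBS and 7.0 and 6.07 with dopamine. The Psmb9 to Psmb6 ratio was 1.02 and 1.05 with PBS and 0.729 and 0.750 with dopamine. The Psmb10 to Psmb7 ratio was 1.13 and 1.19 with PBS and 0.732 and 0.910 with dopamine. All 3 ratios were lower in both dopamine libraries than in both PBS libraries, and the groups did not overlap. The differences in log2 ratio were -0.62, -0.49 and -0.51 in that order, each with a 2-sided exact permutation p of 0.33 (n = 2 per group), the smallest that 2 against 2 libraries allow. Correction for GC content and transcript length moved these genes unequally. The corrected log2 fold change was 0.24 for Psmb8 and 0.69 for Psmb5, 0.11 for Psmb9 and 0.55 for Psmb6, and -0.12 for Psmb10 and 0.54 for Psmb7. Per kilobase of exon, the mean ratio went from 2.66 to 1.73 for Psmb8 to Psmb5, from 0.530 to 0.378 for Psmb9 to Psmb6 and from 2.33 to 1.64 for Psmb10 to Psmb7. The immunoproteasome member of the pair thus had the higher level per length in 2 of the 3 pairs under both treatments. For Psmb8 and Psmb5 this order and the size of the ratio are less certain. Of the 50-base words of the longest Psmb5 transcript, 57.1% also occur in transcripts of other genes, against 4.95% for Psmb8. How reads from such shared sequence were counted is not known here.

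**Figure D2:**
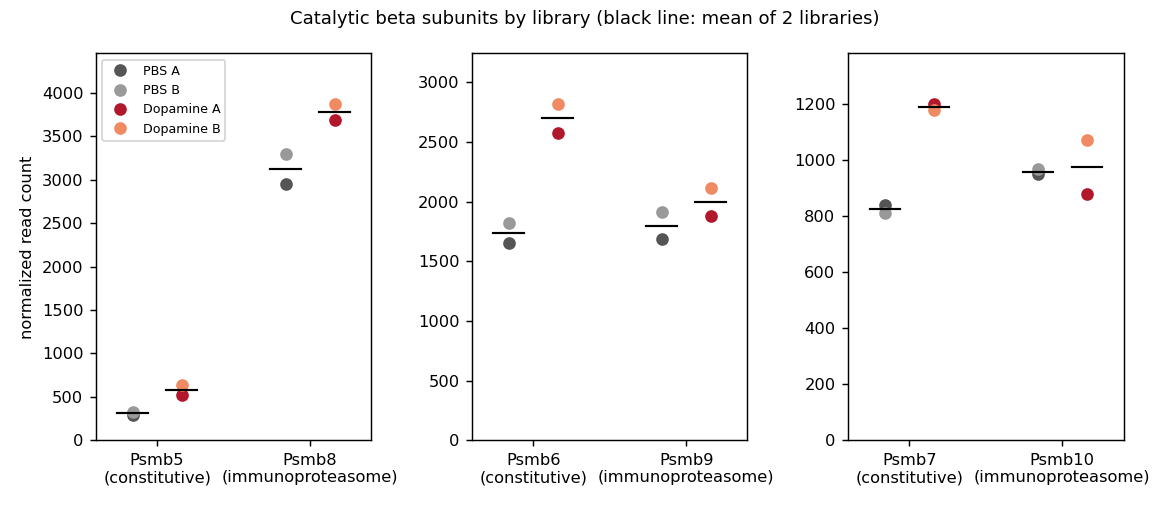
Normalized read counts (linear axes from 0) of the 3 constitutive catalytic subunits and the immunoproteasome subunits that replace them, with 1 point per library and black lines for group means. Both dopamine points lie above both PBS points for Psmb5, Psmb6, Psmb7 and Psmb8, whereas the groups overlap for Psmb9 and Psmb10.

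Promoter sequence was examined because these genes moved to different extents. RefSeq windows (GRCm38.p6) of 300 bases, from 250 before to 50 after the start site, matched 41 of the 49 proteasome genes in 44 windows. The antioxidant response element core, TGACNNNGC on either strand, the site class bound by Nfe2l1 and Nfe2l2 with small Maf proteins, was found in 6 of 44 windows (13.6%), against 12.4% of all 32851 promoter windows. The 4 stretches below are the upstream sequence of 2 catalytic subunits that rose, of the chaperone Psmd9, which also rose, and of Psmb10, which did not pass. Psmb5, Psmb6 and Psmd9 are among the 6 windows with a match, so these stretches do not represent the 44 windows. The remaining matches were in Psmc6, Psmd12 and Psme4, the last with a log2 fold change of only 0.24. A relation between a match and the change with dopamine was not tested. The stretches are given 5′ to 3′ on the gene's strand and leave out annotated exons. Capitals mark matches to TGACNNNGC, CCAAT, TTCNNNGAA or the interferon regulatory element, which is GAAA repeated after any 2 bases.
Psmb5, chr14:54618023-54618115, minus strand: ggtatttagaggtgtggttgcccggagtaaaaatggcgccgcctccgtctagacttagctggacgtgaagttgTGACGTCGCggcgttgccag
Psmb6, chr11:70525237-70525356, plus strand: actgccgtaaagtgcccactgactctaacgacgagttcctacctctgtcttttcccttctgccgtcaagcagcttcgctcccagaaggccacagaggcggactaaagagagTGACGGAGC
Psmd9, chr5:123228070-123228189, plus strand: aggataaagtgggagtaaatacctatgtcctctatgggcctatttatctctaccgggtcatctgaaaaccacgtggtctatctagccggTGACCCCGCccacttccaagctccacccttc
Psmb10, chr8:105938445-105938564, minus strand: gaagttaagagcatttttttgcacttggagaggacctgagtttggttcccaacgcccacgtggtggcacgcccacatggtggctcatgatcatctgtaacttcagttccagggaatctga

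In 3 of these windows the capitals are a TGACNNNGC match, which starts 47 bases before the RefSeq start of Psmb5, 9 before that of Psmb6 and 31 before that of Psmd9. The other motifs searched on both strands were the interferon regulatory element in 11.4% of member windows (5 of 44) and 3.44% of all windows, CCAAT in 31.8% (14 of 44) and 37.4%, and TTCNNNGAA in 6.82% (3 of 44) and 8.30%. The 5 members with an interferon regulatory element match were Psmd4, Psmd9, Psmb3, Psmg4 and Psme1. Those with a TTCNNNGAA match were Psmd2, Psmg1 and the immunoproteasome gene Psmb8, and Psmb9 had a CCAAT match. Within the whole 300-base window of Psmb10 no match to the 4 motifs was found. A match is a string of letters and not a measured binding site.

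Among the activators and the inhibitor, 4 of 6 genes rose, with a median log2 fold change of 0.27 (1.2-fold). This median was close to the 0.21 of genes with a mean over 500, of which 48.7% were higher. After correction for GC content and transcript length, the group median was 0.18 and that of the abundant genes 0.23. Psme3, a nuclear activator that works without ATP, had normalized counts of 708 and 749 with PBS and 986 and 1055 with dopamine, a log2 fold change of 0.49 (adjusted p = 2.63e-05). Psme1 and Psme2 form the interferon-inducible cytosolic activator. Psme1 had 4315 and 4718 with PBS and 5532 and 5500 with dopamine, a log2 fold change of 0.29 (adjusted p = 3.49e-04), which was 0.23 without PBS library A (adjusted p = 0.0893). Its partner Psme2 had 2139 and 2123 against 2590 and 2609, also 0.29 (adjusted p = 0.00149). In both partners both dopamine libraries were the highest, as they were in 67.8% of genes with a mean over 500. The estimates of both partners were close to that of Psmb8. Psme4, a large nuclear activator, had 1921 and 1908 against 2215 and 2319, a log2 fold change of 0.24 (adjusted p = 0.00975) that did not pass without PBS library A or B or dopamine library B (adjusted p = 0.0788 to 0.134). The inhibitor Psmf1 had 523 and 523 against 534 and 592, a log2 fold change of 0.10 with a 95% interval of -0.09 to 0.30 (adjusted p = 0.496). Psme2b, a near copy of Psme2, had 45.9 and 63.6 against 48.6 and 66.0, and the groups overlapped (adjusted p = 0.869). Rescaled on abundant genes, only 1 of these 6 genes, Psme3, remained higher.

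The assembly chaperones rose, 7 of 7 with limma, with a median log2 fold change of 0.52 (1.43-fold). By that test 14.3% of all genes were higher. With edgeR TMM and with DESeq2, 5 of the 7 were higher, where 18.2% and 20.5% of the genes tested were higher. Psmg4, part of a chaperone pair that helps build the alpha ring, had normalized counts of 173 and 209 with PBS and 390 and 347 with dopamine. The gap between the groups was wider than that within either, and the log2 fold change of 0.95, with a standard error of 0.12, was the largest of the 50 genes (adjusted p = 7.33e-08). Psmd9, which helps assemble the ATPase ring, had 173 and 188 against 295 and 323, a log2 fold change of 0.77 with a standard error of 0.13 (adjusted p = 5.49e-06). Psmd10, another chaperone of that ring, had 280 and 304 against 357 and 377. Its log2 fold change of 0.33 (adjusted p = 0.0316) was the smallest in the group, and without PBS library A its adjusted p was 0.211. The calls of Psmd10, Psmg1 and Psmg3 were lost after rescaling, without PBS library A and without dopamine library B, which left 4 of 7 chaperones in each case. Psmc3ip, which is no subunit, had 224 and 202 against 277 and 262, with a log2 fold change of 0.34 (adjusted p = 0.0476) that lost its call without any 1 of the 4 libraries.

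As a share of all reads on genes, the 50 members made up 0.710% and 0.707% of the PBS libraries and 0.929% and 0.931% of the dopamine libraries. The 31 constitutive 20S and 19S genes above the same minimum mean went from 0.528% and 0.522% to 0.730% and 0.726%. The immunoproteasome genes took 0.0575% and 0.0608% with PBS and 0.0590% and 0.0633% with dopamine, shares that overlapped between the groups. The activators and the inhibitor took 0.0994% in each PBS library and 0.109% in each dopamine library. Chaperone transcripts took 0.0224% and 0.0229% against 0.0291% and 0.0302%.

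**Figure D3:**
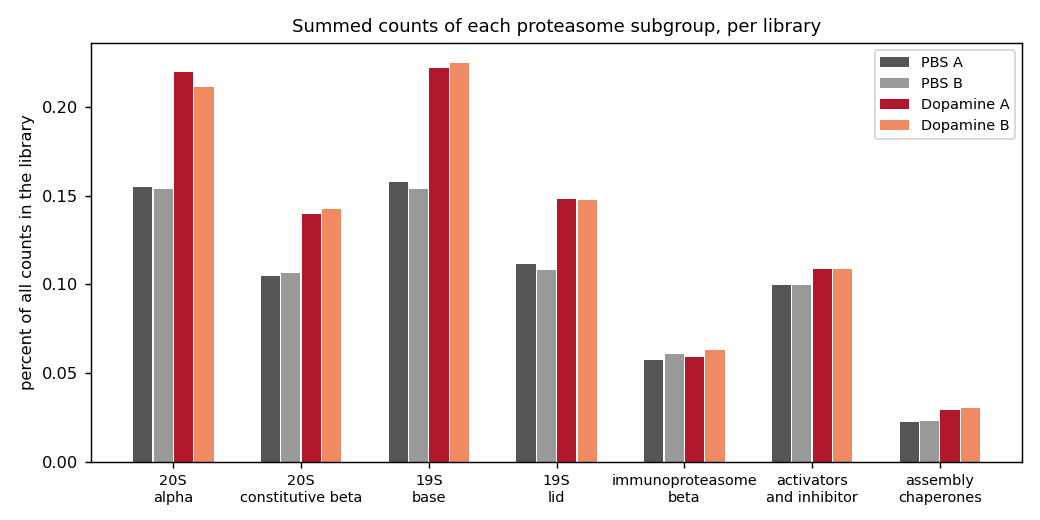
Percent of all reads on genes taken by each group of members, with 1 bar per library. The dopamine libraries lie above the PBS libraries for the core, 19S, activator and chaperone groups, and the groups overlap for the immunoproteasome, at 0.0575% and 0.0608% with PBS and 0.0590% and 0.0633% with dopamine.

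Levels between genes were compared as normalized count per kilobase of exon. In PBS libraries the median was 854 in the alpha ring, 574 in the constitutive beta ring, 562 in the immunoproteasome, 600.0 in the base and 454 in the lid. Psme1 had a mean per kilobase of 2045 with PBS and Psmb2 one of 1678, an order that turns on the longest transcript (2274 and 2352). The lid subunit Psmd11 was at 87.6, so genes for subunits of one complex differed widely in level. Among catalytic subunits the means per kilobase were 347 for Psmb5, 926 for Psmb6 and 242 for Psmb7, against 924 for Psmb8, 491 for Psmb9 and 562 for Psmb10. These levels depend on the transcript length used, since reads were counted per gene.

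**Figure D4:**
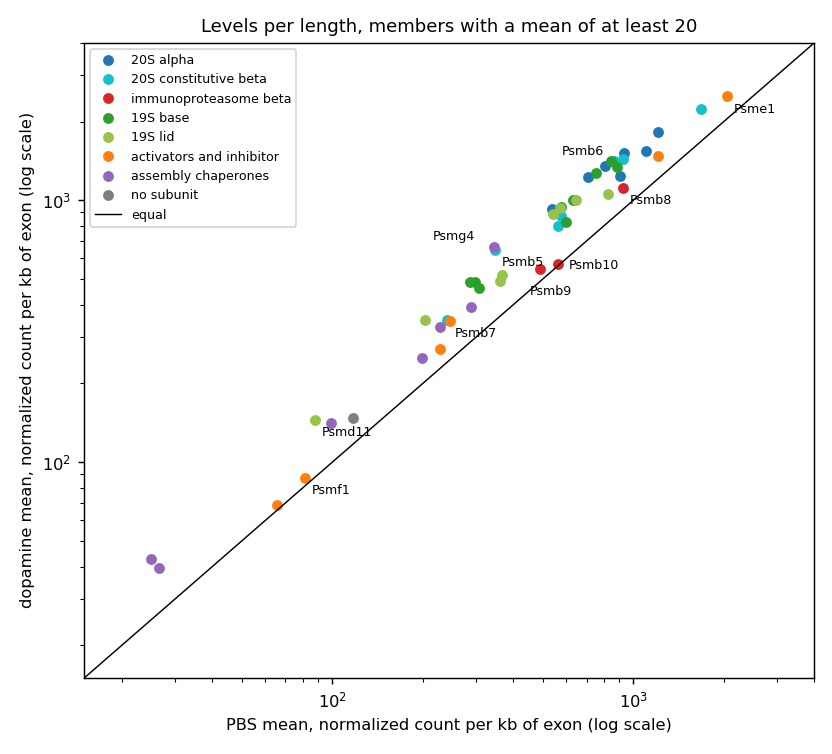
Mean normalized count per kilobase of exon with dopamine against PBS, both on log axes, for the 48 members with a mean of at least 20; the line marks equal levels. Core, 19S and chaperone genes lie above the line over the whole range, while Psmb9, Psmb10 and Psmf1 lie close to it.

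Several members lie beside each other or share sequence. Psmb9 and Tap1, which encodes a peptide transporter, start 211 bases apart on chromosome 17 in opposite directions and share 212 bases of exon on opposite strands. The start of Psmb8 is 9957 bases from that of Psmb9. Psmb5 and Psmb11 start 3411 bases apart on chromosome 14, and Psme1 and Psme2 12990 bases apart on the same chromosome. Of the 50-base words in transcripts of Psmb5, 57.1% also occur in transcripts of other genes, among them its pseudogene, so its counts are less certain than those of its neighbours. The same holds for Psma5 (55.4%), Psme2 (59.3%) and Psme2b (69.3%), the last pair sharing words with each other. Exons on the opposite strand overlap 25.5% of the exon length of Psmd9, 21.2% of Psmc3ip, 14.7% of Psmb8 and 11.8% of Psmb7. The library kit keeps strand, but no source states the strand setting of the counting, and reads of such pairs may not be separated.

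Genes that work with the proteasome were taken from 4 lists, whose counts are read against 14.3% higher and 7% lower over all genes, and 48.7% and 8.36% among genes with a mean over 500. Of 10 proteasome-bound or assembling genes with a row in the table, 9 were higher and 0 lower (limma; 0 lower with edgeR TMM and DESeq2), with a median log2 fold change of 0.53. The 8 of them with a mean over 500 were all higher. Adrm1, a ubiquitin receptor of the base, rose from 337 ± 12.5 to 625 ± 38.0 (mean ± SD, n = 2), a log2 fold change of 0.89 (limma adjusted p = 3.32e-09). Uchl5, the deubiquitinase that Adrm1 holds, rose by 0.68, and Zfand5, a proteasome activator, by 0.67. Pomp, the maturation chaperone of the core, rose by 0.52.

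Of 14 genes for ubiquitin and its delivery, 12 were higher and 0 lower, with a median of 0.48, and all 10 with a mean over 500 were higher. Vcp, the ATPase that extracts ubiquitinated proteins, rose by 0.76 (adjusted p = 4.12e-12), the ubiquitin fusion gene Rps27a by 0.43 and the shuttle gene Rad23b by 0.51. Of 10 regulators of proteasome genes, 5 were higher and 1 was lower, with a median of 0.21, and the lower call was lost without PBS library B and without dopamine library B. Among the 7 with a mean over 500, 4 were higher, and both this count and the median are close to those of all genes of that abundance. Nfe2l1, the transcription factor known for restoring proteasome gene expression, had 574 and 555 with PBS and 781 and 783 with dopamine, and rose by 0.47 on the log2 scale (limma adjusted p = 1.05e-04). Its small Maf partners Mafg and Mafk rose by 0.67 and 0.45, while the other small Maf gene Maff (0.22, adjusted p = 0.430) did not pass. Neither did Nfe2l2 (0.12, adjusted p = 0.398) nor Nfe2l3 (-0.42, adjusted p = 0.270).

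Of 9 genes for peptide trimming and loading, 6 were higher and 1 lower, with a median of 0.35. All 9 had a mean over 500, where 48.7% of genes were higher. The peptidases Lap3, Thop1 and Tpp2 rose by 0.76, 0.74 and 0.46. Tap1, the neighbour of Psmb9, had a log2 fold change of 0.04 (limma adjusted p = 0.680). B2m, the light chain of class I molecules, had a log2 fold change of -0.13 (limma adjusted p = 0.0338), a call lost without any 1 of the 4 libraries. The B2m estimate moved in both directions with the setting. It was -0.33 after rescaling on abundant genes (limma adjusted p = 5.91e-08) and -0.24 with edgeR TMM (edgeR adjusted p = 0.00220). After correction for GC content and transcript length it was -0.03 (limma adjusted p = 0.797). Maff, Nfe2l2, Nfe2l3, Pomp, Tap1 and B2m were chosen for naming after their values were seen.

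The scaling between libraries moved the level of all estimates. Rescaling the libraries to the genes whose mean reached 100 lowered log2 fold changes by 0.19, and the 31 core and 19S genes then had a median of 0.48 and a largest adjusted p of 0.0488. Of the 50 members 36 were then higher, where 6.9% of all genes were higher and 12.1% lower. Under that scaling 24.7% of genes with a mean over 500 were higher and 21.4% lower, against 48.7% and 8.36% before. Upper quartile scaling in edgeR also gave 36 members higher, with 13.1% of all genes higher and 20.5% lower. The median of the 31 genes lay 0.46 above that of genes with a mean over 500, a difference that a common rescaling of the libraries cannot change. It was 0.39 after correction for GC content and transcript length.

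**Figure D5:**
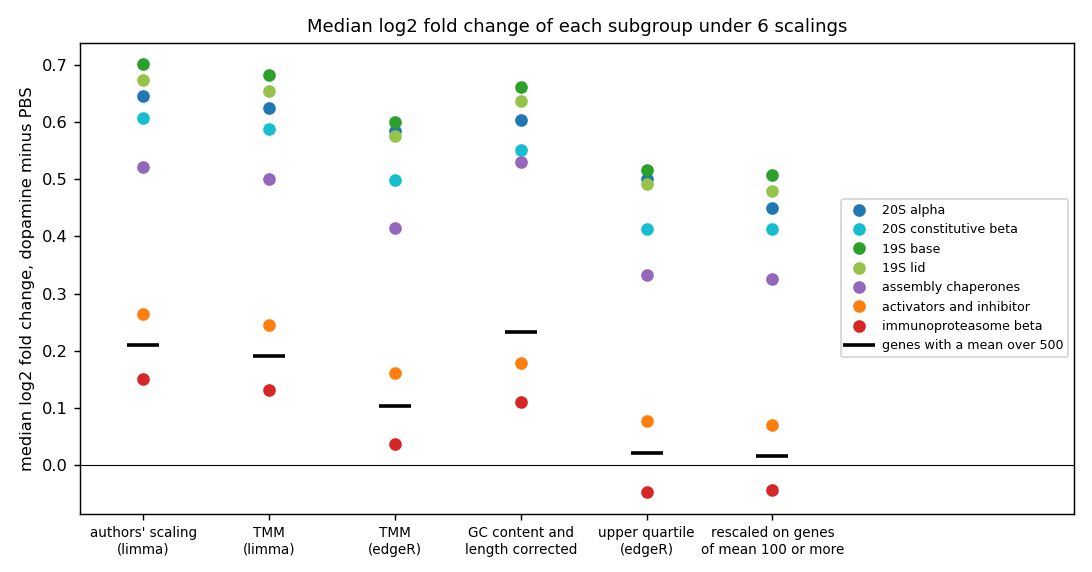
Median log2 fold change (dopamine minus PBS) of each group of members under 6 scalings or corrections, with a black bar for the median of genes with a mean over 500. A change of scaling alone moves points and bar together. The alpha ring median covers 8 genes in the limma scalings but 7 in the edgeR and GC-corrected fits, which leave out Psma8. The core and 19S groups lie above the bar. The immunoproteasome median lies below it and moves from 0.15 to below 0 under upper quartile scaling and rescaling.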

How the data were processed

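Th2 cells were profiled by RNA-seq in 4 libraries, 2 with PBS and 2 with dopamine at 10 µM. Per the submitters' processing notes, FastQC 0.11.2, TopHat2 2.0.13, HTSeq 0.6, DESeq2 and R 3.6.2 were used with build mm10; their settings were not known here. The deposited library columns hold a signal, gene counts divided by size factors, from which 100% of values came out as whole reads within 0.01. The deposited table also gives log2 fold changes, a test score (Wald statistic) and p-values of the authors' own comparison. Column numbers differ from the replicate numbers in the labels, so A and B only name libraries.

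Because the deposited values are normalized counts, limma 3.58.1 (R 4.3.3) with a mean-variance trend was fitted to log2(value + 1) of all 26207 genes without a filter, 2-sided, with Benjamini-Hochberg adjustment over all genes. Fold changes are on that scale, which understates low genes. Log-scale spread was moderated across genes (prior degrees of freedom 42.4). The script was tested on simulated data. Alternatives on the recovered reads used edgeR 4.0.16 and DESeq2 1.42.0; 15329 genes, 48 of them members, passed the edgeR filter. Lengths and GC content came from GENCODE M21. Members and lists were chosen with earlier results of these data known. Members named were the 3 catalytic pairs, the 2 largest and the smallest change of each group (mean of at least 20), members with a mean under 20 and Psmc3ip, and outside the rule up to 3 genes per list with the smallest p; Psme2, Psme4 and Psmf1 were added after their values were seen. Intervals cover the spread between these libraries only. 0 columns belonged to other samples. The values of 1 gene of the regulator list are not reported here.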

Additional observations from a re-analysis of the deposited data

How the results depend on the processing

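With 2 libraries per group, calls near the threshold are the ones that moved. The number of members called higher was 44, with 36 after rescaling on abundant genes or edgeR upper quartile scaling, 40 with edgeR TMM, 41 with DESeq2 and 37 to 42 without 1 library; 0 were lower in each setting. The median log2 fold change of the members was 0.35 after rescaling, 0.46 with edgeR TMM, 0.46 with edgeR on DESeq2 size factors and 0.38 with upper quartile scaling. Higher calls after rescaling and with upper quartile scaling were 0 and 0 for the immunoproteasome, 1 and 1 for the activators, 4 and 4 for the chaperones and 3 and 3 for the regulators. Without 1 library, higher calls ranged from 0 to 1 for the immunoproteasome, 2 to 4 for the activators and 4 to 7 for the chaperones, the lowest coming without PBS library A in all 3 and also without dopamine library B for the chaperones. Lower calls ranged from 0 to 1 for the regulators and stayed at 0 for peptide trimming, which was also 0 with DESeq2, genes of at least 5 CPM, GC content and length correction, and the replicate block with that correction. With the replicate block, 45 members were higher, and 2 in the immunoproteasome, where Psmb9 was then called (adjusted p = 0.0381); same-numbered libraries had a correlation of deviations of 0.21 over 2 pairs, and they share only a number. On the longest transcript the median level per kilobase of the subunits with PBS was 738 in place of 560.9. In the first 200 bases of the windows 4.55% held TGACNNNGC, against 7.66% of all promoters. The alternatives for the 4 lists of other genes were chosen after seeing the data. The next counts cover the members named by rule and leave out Psme2, Psme4 and Psmf1, which were added later. Of these fits, 355 kept direction and call, 26 lost the call, 1 gained it and 20 changed sign. All 20 were in genes called in neither fit. After rescaling, Psmb9 was at -0.045, Psmb10 at -0.18 and Psme2b at -0.12, and with upper quartile scaling at -0.048, -0.17 and -0.20. Psmb10 and Psme2b were at -0.083 and -0.12 with edgeR TMM, at -0.082 and -0.11 with edgeR on DESeq2 size factors, and at -0.12 and -0.060 with GC content and length correction, with or without the replicate block. Psme2b was at -0.037 with edgeR TMM without a filter. Without 1 library, Psma8 ranged from -0.28 to 0.25, Psmb10 from -0.12 to 0.16 and Psme2b from -0.16 to 0.30. Shallow members (Psma8, Psmb11) were limited by depth.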
